A study of Mus musculus with 22 samples.

Results

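Transcripts of 10 cardiac transcription factors (Gata4, Gata6, Nkx2-5, Tbx5, Tbx20, Mef2a, Mef2c, Hand2, Irx4 and Hey2) were measured in mouse hearts after particles had been put into the lungs. They were chosen by name, as every array probe whose accession RefSeq pairs with one of these symbols. The 10 symbols had 17 probes, and they make up 10 of the 15503 genes tested. Each gene was read from its kept probe with the brightest mean heart signal, so 10 probes carry the values below.

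The hearts came from 22 female C57BL/6 mice in 4 groups: nano-TiO2 day 1 (5 mice), control day 1 (5 mice), nano-TiO2 day 28 (6 mice) and control day 28 (6 mice). Mice were bought at 5 to 7 weeks of age and acclimatized for 1 to 3 weeks. Nano-TiO2 mice received 162 µg of titanium dioxide nanoparticles once into the trachea in 40 µl, and control mice received 40 µl of the dispersant, saline with cell-free lavage fluid of other mice. Every array carried the heart RNA of 1 mouse in Cy5 and the same reference, a pool of RNA from 11 mouse cell lines, in Cy3, with no dye swap. A value is the log2 ratio of heart to reference, so a value of 1 means a ratio of 2 to 1. The comparisons ask whether the heart's transcripts differ after exposure of the lung, at either time.

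These proteins bind DNA and switch genes of the heart muscle cell on or off. GATA4, NKX2-5 and TBX5 bind together at many cardiac promoters and enhancers, and MEF2 factors act with them on genes of contraction and metabolism. In the mouse, Irx4 and Hey2 are known for the ventricle, Tbx5 for the atria, the left ventricle and the conduction system, and Hand2 for the right ventricle of the embryo.

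Heart muscle transcripts were present in every array, with ratios of 7.41 to 8.16 for Tnni3 and 4.34 to 5.36 for Myh6, while the extraction text of the labels names lung. The lung epithelial transcript Scgb1a1 or the liver transcript Alb had a ratio over 3 on 5 of 22 arrays, 4 of them control day 28 and 1 nano-TiO2 day 1. The mean ratio of 7 atrial markers was 1.01, 1.12 and 1.12 on 3 arrays (nano-TiO2 day 1 replicate 1, control day 1 replicate 2 and nano-TiO2 day 28 replicate 1), and 2.08 to 5.45 on the others. Between 32.7% and 52.8% of probes were well above background on an array, and no member value was missing. By replicate the share was 42.0, 40.2, 45.3, 32.7 and 33.3% in control day 1. In control day 28 it was 41.4, 47.6, 52.8, 49.2, 39.9 and 37.2%. The number of arrays limits the precision of every comparison. The labels say that hearts were cut into pieces, and do not say which pieces gave the RNA. In RNA of mixed cells, fewer cells of a type and less RNA per cell cannot be told apart.

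Of the 10 factors, 7 were well above background in heart on 22 of 22 arrays. Their normalized log2 ratio of heart to reference was positive on each array, with means between 0.76 and 3.10. The intensities before normalization did not always have that order. On control day 1 replicate 4 the Mef2c spot read 143 over background in heart and 248 in the reference. Nkx2-5, an early cardiac homeobox factor, averaged 3.10 ± 0.20 (SD, n = 22 arrays). The T-box factors Tbx5 and Tbx20 averaged 2.70 ± 0.73 and 2.51 ± 0.48, the Iroquois factor Irx4 averaged 2.43 ± 0.39, the zinc finger factor Gata6 averaged 2.10 ± 0.16 and the MADS-box factor Mef2c averaged 1.71 ± 0.25. The reference spot of Tbx20 was well above background on 0 of 22 arrays, so its ratio is a lower bound. Hand2, a basic helix-loop-helix factor, averaged 0.76 ± 0.23, with a reference spot well above background on 9 of 22 arrays.

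The other 3 factors were close to their background. Hey2, a target of Notch signalling, averaged 0.29 ± 0.13 and was well above background in heart on 5 of 22 arrays. Gata4 averaged 0.28 ± 0.13 and was well above background in heart on 14 arrays, and Mef2a averaged 0.22 ± 0.20 and did so on 18 arrays. A ratio to a cell line pool is not an abundance, so the order is that of the ratios alone. That order depended on how the background was handled. The offset of 50 pulls dim spots towards 0, and with the scanner's own ratios Tbx20 stood on top at 7.32, followed by Tbx5 at 4.94, Irx4 at 4.01, Nkx2-5 at 3.73, Hand2 at 2.99, Hey2 at 2.48, Gata6 at 2.29, Mef2c at 2.19, Gata4 at 1.51 and Mef2a at 1.34. No order among the factors is therefore read from these ratios.

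**Figure D1:**
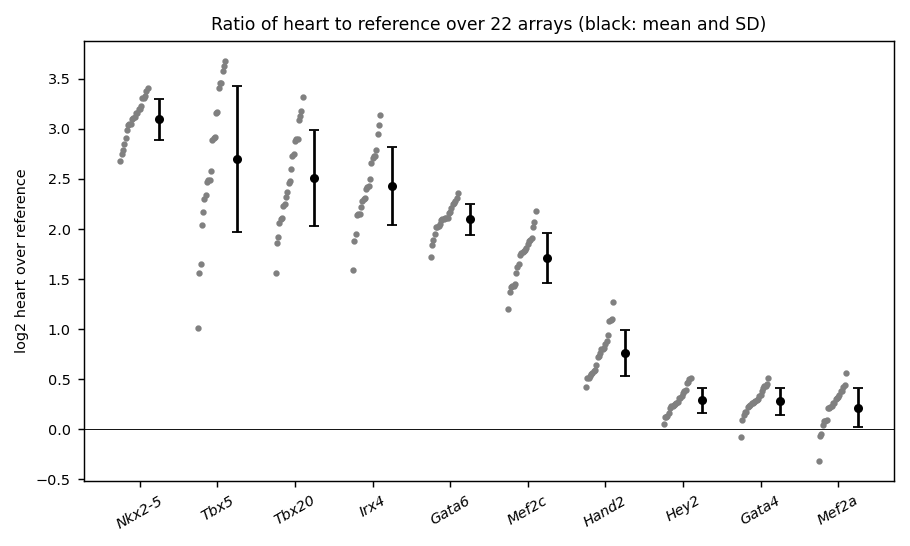
Log2 ratio of heart to reference (vertical axis) for the 10 factors, ordered by their mean; grey points are the 22 arrays and the black point with bars is the mean and SD. Tbx5 spread the most, from 1.01 to 3.68, while Gata6 stayed between 1.72 and 2.36.

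Probes of one gene did not always give the same picture. A second Tbx20 probe, designed on another transcript, was well above background in heart on 0 of 22 arrays, and so was a Gata4 probe printed in 10 spots. A second Tbx5 probe was so on 2 of 22 arrays. Gata6 had 3 probes: the one used had a median heart intensity of 792.5 over background, against 35 and 12 for the other two. The Hand2 and Mef2a probes were both detected, and their second probes correlated with the ones used at r = 0.70 and r = 0.55 over the 22 arrays. For the other Gata6 probes r was 0.47 and -0.00055. It was 0.04, 0.29 and 0.69 for the unused probes of Gata4, Tbx20 and Tbx5. Between nano-TiO2 and control hearts at day 28 the second Hand2 probe differed by 0.10, and the one used by -0.12.

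RefSeq's table (GRCm38.p6) held a promoter for 7 of the 10 factors. The 250 bases before the transcript start are shown for Nkx2-5, Tbx20 and Irx4, since these factors are known to act on each other's genes. Nkx2-5 had the highest mean ratio in the main analysis, though not with plain background subtraction or the scanner's own ratios. Tbx20 is a T-box factor, and Irx4 had the clearest difference between groups. Capitals mark a GATA motif (GATA), an NKX motif (AAGTG) or a T-box motif (GGTGTGA) on either strand, and no motif overlapped another.
Nkx2-5 (chr17:26841566-26841815, minus strand): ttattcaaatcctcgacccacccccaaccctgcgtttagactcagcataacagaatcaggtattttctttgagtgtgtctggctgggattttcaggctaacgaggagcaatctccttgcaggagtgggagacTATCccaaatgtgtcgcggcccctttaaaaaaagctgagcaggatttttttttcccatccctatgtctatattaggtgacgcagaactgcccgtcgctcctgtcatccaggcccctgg
Tbx20 (chr9:24774304-24774553, minus strand): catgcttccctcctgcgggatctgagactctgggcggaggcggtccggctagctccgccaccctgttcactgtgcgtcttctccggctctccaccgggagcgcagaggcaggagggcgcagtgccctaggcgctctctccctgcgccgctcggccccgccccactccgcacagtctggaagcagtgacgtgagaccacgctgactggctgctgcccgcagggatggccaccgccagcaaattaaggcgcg
Irx4 (chr13:73260247-73260496, plus strand): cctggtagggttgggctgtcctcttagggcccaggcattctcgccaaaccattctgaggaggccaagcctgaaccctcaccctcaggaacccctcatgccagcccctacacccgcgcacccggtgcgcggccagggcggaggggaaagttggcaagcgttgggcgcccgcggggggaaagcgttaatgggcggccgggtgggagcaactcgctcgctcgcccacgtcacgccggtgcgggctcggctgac
The Nkx2-5 window held 1 GATA motif, on the opposite strand (TATC), and the Tbx20 and Irx4 windows held none of the 3 motifs. Of 32851 promoters of the same length, 53.6% held a GATA motif, 40.7% an NKX motif and 3.33% a T-box motif. The Hand2 window and each of the 3 Mef2c windows held 2 GATA motifs and 1 NKX motif, and the Hey2 and Mef2a windows held none of the 3. A match is a description of letters and not a bound site.

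At day 1 none of the 10 factors passed the test between nano-TiO2 and control hearts, where 0% of the 15503 genes did, and 8 of the 10 were higher and 2 lower in nano-TiO2 hearts. At an unadjusted p under 0.05 stood 1 of the 10, Tbx5, and 8.63% of all genes. It had ratios of 2.34, 3.41, 3.16, 3.68 and 2.88 in nano-TiO2 hearts and of 2.49, 2.17, 2.30, 1.01 and 2.04 in control hearts. The lowest nano-TiO2 heart lay below the highest control heart, and the other 4 lay above all 5 controls. The control ratio of 1.01 came from replicate 4, the array with the smallest share of probes well above background (32.7%). Its Tbx5 reference spot was not well above background. The means were 3.10 ± 0.52 in nano-TiO2 hearts and 2.00 ± 0.58 in controls (SD, n = 5 each), a difference of 1.09 ± 0.36 (SE; 95% interval 0.35 to 1.83; adjusted p = 0.478). With the scanner's own ratio it was 0.18 ± 0.17 (adjusted p = 0.704) and with plain background subtraction 0.41 ± 0.24 (adjusted p = 0.569). Within the 4 slides that held day 1 hearts of both treatments, Tbx5 was higher with nano-TiO2 on 3, with differences of -0.15 to 2.67. The largest was on the slide of control replicate 4. Gata4 was higher on 4, by 0.032 to 0.14, from dim spots. At day 1 these were well above background in 4 of 5 nano-TiO2 and 2 of 5 control hearts. With the heart channel (Cy5) alone the Gata4 difference was -0.0074.

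Tbx20, which represses other T-box genes and keeps the adult heart muscle cell in its state, had ratios of 2.06, 2.37, 3.08, 2.88 and 2.48 in nano-TiO2 hearts and of 2.25, 2.23, 2.60, 1.56 and 1.92 in control hearts at day 1. The 2 groups overlapped, and the difference was 0.46 ± 0.26 (SE; adjusted p = 0.610). Irx4, known from chick for repressing an atrial myosin gene in the ventricle, had ratios of 2.95, 2.28, 2.43, 2.22 and 2.79 in nano-TiO2 hearts and of 3.14, 3.04, 2.73, 2.40 and 2.66 in control hearts. Its difference was -0.26 ± 0.18 (adjusted p = 0.682). The remaining 7 differed by -0.03 (Nkx2-5) to 0.15 (Mef2a), with intervals that all held 0. All 10 factors overlapped between the groups, where 1.27% of all genes lay wholly higher and 0.426% wholly lower in nano-TiO2 hearts.

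**Figure D2:**
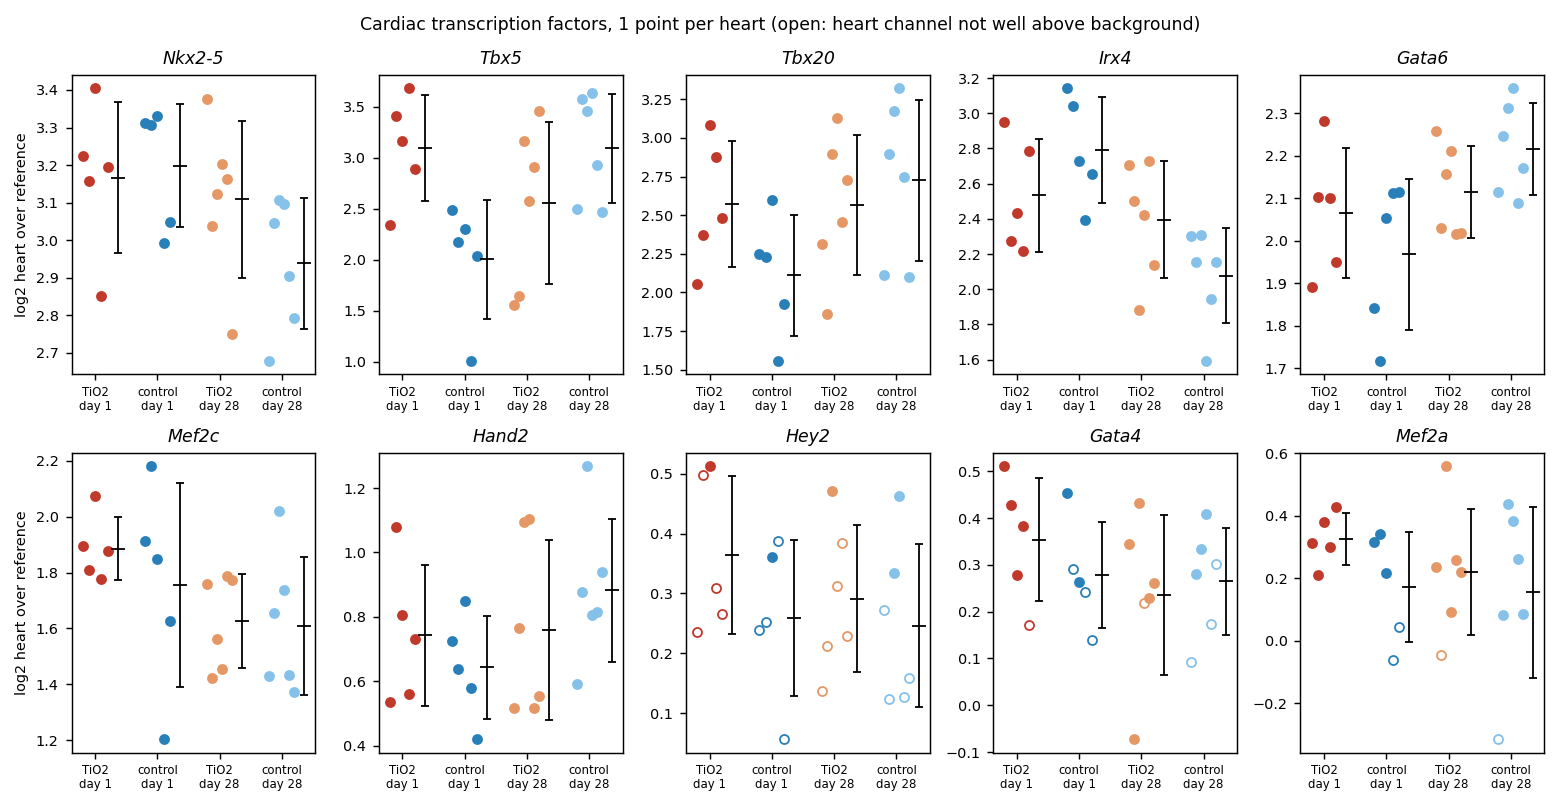
Log2 ratio of heart to reference (vertical axis, its own scale in each panel) for each heart in the 4 groups; bars are the group mean and SD, and open points are hearts whose spot was not well above background. The 6 control day 28 hearts lay below all 5 control day 1 hearts for Irx4, and 4 of 5 nano-TiO2 day 1 hearts lay above all control day 1 hearts for Tbx5.

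At day 28 again none of the 10 passed between nano-TiO2 and control hearts (0% of all genes did), with 5 higher and 5 lower. At an unadjusted p under 0.05 stood 0 of the 10 and 7.59% of all genes. Tbx5 ran from 1.56 over a median of 2.74 to 3.46 in nano-TiO2 hearts, and from 2.46 over a median of 3.19 to 3.63 in control hearts. The nano-TiO2 hearts covered nearly the whole range of the controls and reached lower, and the difference was -0.54 ± 0.32 (SE; adjusted p = 0.716). Irx4 ran from 1.88 over 2.46 to 2.73 in nano-TiO2 hearts and from 1.59 over 2.15 to 2.31 in control hearts (lowest, median and highest). Its difference was 0.32 ± 0.16 (SE; 95% interval -0.02 to 0.66; adjusted p = 0.666). Tbx20 differed by -0.16 ± 0.24 and Nkx2-5 by 0.17 ± 0.11. Within the 6 slides that held day 28 hearts of both treatments, nano-TiO2 was lower on 5 of 6 for Tbx5 (-1.92 to 1.00), Gata6 (-0.22 to 0.14) and Hand2 (-0.39 to 0.30). All 10 overlapped, where 0.0452% of all genes lay wholly higher and 0.071% wholly lower.

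The effects of nano-TiO2 at the 2 times were also set against each other, day 28 minus day 1. Tbx5 had -1.63 ± 0.48 (SE; 95% interval -2.63 to -0.63), which did not pass over all genes (adjusted p = 0.129; 0% of all genes passed). At an unadjusted p under 0.05 stood 2 of the 10, Tbx5 and Irx4, and 14.8% of all genes. With the scanner's ratio it was -0.23 ± 0.23 and with plain subtraction -0.53 ± 0.32. Irx4 had 0.58 ± 0.24 (adjusted p = 0.271) and Tbx20 had -0.62 ± 0.35 (adjusted p = 0.429). The Tbx5 and Irx4 effects thus had opposite signs at each time, and neither change of effect passed the test.

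In controls, Irx4 and Tbx5 changed between the times, in opposite directions: 2 of the 10 factors were called, beside 10.5% of all genes. Irx4 fell to 1.59 to 2.31 (median 2.15) in control day 28 hearts, against 3.14, 3.04, 2.73, 2.40 and 2.66 in control day 1 hearts, and the groups did not overlap. Genes that lay wholly lower made up 2.35% of all genes, and those called lower made up 3.44%. The means were 2.08 ± 0.27 (SD, n = 6) at day 28 and 2.79 ± 0.30 (SD, n = 5) at day 1, a difference of -0.72 ± 0.17 (SE; 95% interval -1.07 to -0.36; adjusted p = 0.0119), or 0.609 times the day 1 level. It was lower at day 28 in all 3 slides and all 3 scan days that held controls of both times, by -0.74 to -0.42 within slides and by -0.86 to -0.48 within scan days. With the slide as a block the call was lost (-0.62 ± 0.19; adjusted p = 0.121), and it was lost too without the 5 arrays with lung or liver transcripts, which left 2 control day 28 hearts (-0.64 ± 0.23; adjusted p = 0.320).

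Tbx5 rose in day 28 controls, to 2.46 to 3.63 (median 3.19), against 2.49, 2.17, 2.30, 1.01 and 2.04 in day 1 controls. The lowest of the day 28 hearts lay just below the highest of the day 1 hearts. The day 1 ratio of 1.01 came from replicate 4, the array with the smallest share of probes well above background. The difference was 1.09 ± 0.34 (SE; 95% interval 0.38 to 1.79; adjusted p = 0.0434), where 7.02% of all genes were called higher. The call was lost without any 1 of 8 of the 11 control hearts (adjusted p up to 0.121), with the slide as a block (0.86 ± 0.45; adjusted p = 0.327) and without the 5 arrays with lung or liver transcripts (1.02 ± 0.49; adjusted p = 0.443). With the scanner's own ratio the sign turned, to -0.31 ± 0.16 (adjusted p = 0.168), and with plain background subtraction it was -0.17 ± 0.22 (adjusted p = 0.676).

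The next 3 factors leaned one way in controls without passing. Tbx20 ran from 2.10 over 2.82 to 3.32 at day 28 and had a highest ratio of 2.60 at day 1, a difference of 0.61 ± 0.25 (adjusted p = 0.118). Gata6, which overlaps with Gata4 in heart development, differed by 0.25 ± 0.09 (adjusted p = 0.0693; 0.0493 without control day 1 replicate 5). The other Gata6 probes, both dimmer and kept by the filter, differed by 0.09 and -0.04. Nkx2-5 differed by -0.26 ± 0.11 (adjusted p = 0.142). Nkx2-5 passed with the scanner's ratio (-0.41 ± 0.11; adjusted p = 0.0144), with plain subtraction (-0.40 ± 0.12; adjusted p = 0.0437), with the scan day as a block (-0.29 ± 0.09; adjusted p = 0.0458) and with Cy5 alone (-0.28 ± 0.09; adjusted p = 0.0487). It was -0.012 ± 0.29 with median centring (adjusted p = 0.993) and -0.30 ± 0.34 with normexp fitted on all spots (adjusted p = 0.795). Mef2c, Hand2, Gata4, Mef2a and Hey2 differed by -0.15 to 0.24, none of them called, and Mef2c passed with the scanner's ratio (-0.35 ± 0.10; adjusted p = 0.0185). Of the 10 factors, 9 overlapped between control times and none lay wholly higher at day 28, as 4.66% of all genes did.

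In nano-TiO2 hearts no factor passed between day 28 and day 1 (0% of all genes did), and 0 of the 10 stood at an unadjusted p under 0.05, beside 4.49% of all genes. Irx4 differed by -0.14 ± 0.17, Tbx5 by -0.54 ± 0.34 and Tbx20 by -0.01 ± 0.25 (SE). The control and nano-TiO2 comparisons over time share no hearts. The treatment comparison at day 1, the controls over time and the difference of effects all use the same 5 control day 1 hearts. Those results are thus not independent of each other. For Tbx5 the control day 1 mean was 2.00, against 3.10, 2.55 and 3.09 in nano-TiO2 day 1, nano-TiO2 day 28 and control day 28 hearts. The difference between the 2 comparisons over time is the contrast of nano-TiO2 effects given above, which did not pass for any factor.

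**Figure D3:**
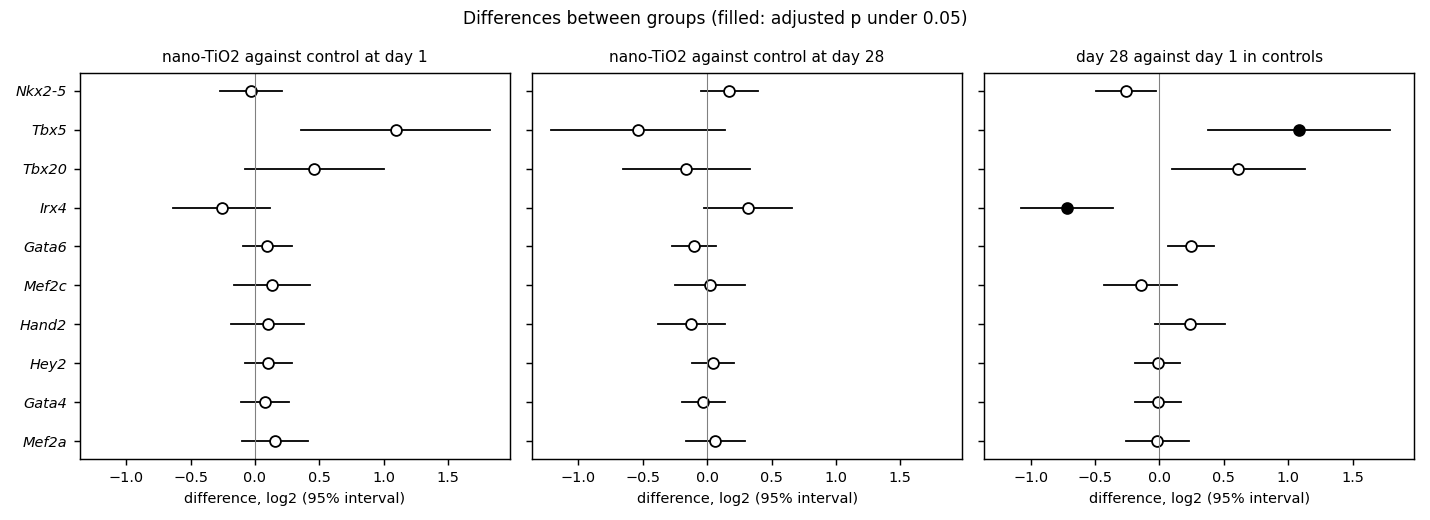
Difference of log2 ratios (horizontal axis) with its 95% interval for the 10 factors, at day 1 and at day 28 between nano-TiO2 and control, and in controls between day 28 and day 1; filled points passed an adjusted p of 0.05. The 2 filled points are Irx4 at -0.72 and Tbx5 at 1.09 in controls.

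The reference channel of the Tbx5 spot did not stay level, although every array carried the same reference RNA. Its heart intensity over background ran from 37 to 875, and its reference intensity was 3 on the array with the lowest heart signal and 61.5 on the array with the highest. By group, the heart intensity was 156.5 to 597 in nano-TiO2 day 1 hearts, 37 to 195.5 in control day 1 hearts, 72 to 501.5 in nano-TiO2 day 28 hearts and 162.5 to 875 in control day 28 hearts. The scanner's log2 ratio of the same spots was 5.04 to 5.33 in nano-TiO2 day 1 hearts, 4.67 to 5.38 in control day 1 hearts, 4.11 to 5.14 in nano-TiO2 day 28 hearts and 4.51 to 5.08 in control day 28 hearts, which overlap widely. The heart channel alone gave a Tbx5 difference of 1.05 ± 0.29 (SE; adjusted p = 0.0265) in controls over time, and of 0.86 ± 0.31 (adjusted p = 0.546) between nano-TiO2 and control hearts at day 1.

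The reference spots of Irx4, Nkx2-5, Tbx20 and Hand2 followed the heart signal less closely or not at all. That of Irx4 was 35 on the array with the lowest and 38 on the array with the highest heart signal, where the heart intensity was 127.5 and 404. That of Nkx2-5 was 164 and 158 at heart intensities of 402 and 1338, and that of Tbx20 stayed between -8 and 22.5. That of Hand2 was 6 and 10.5 at heart intensities of 16 and 91.5. Over the 22 arrays the log2 intensities of both channels correlated at r = 0.78 for Tbx5 and r = 0.49 for Hand2. For Tbx20, Irx4 and Nkx2-5 r was 0.31, 0.07 and -0.11. The heart channel alone gave an Irx4 difference of -0.79 ± 0.18 (adjusted p = 0.0115) in controls over time. Why the Tbx5 reference signal moved was not tested.

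**Figure D4:**
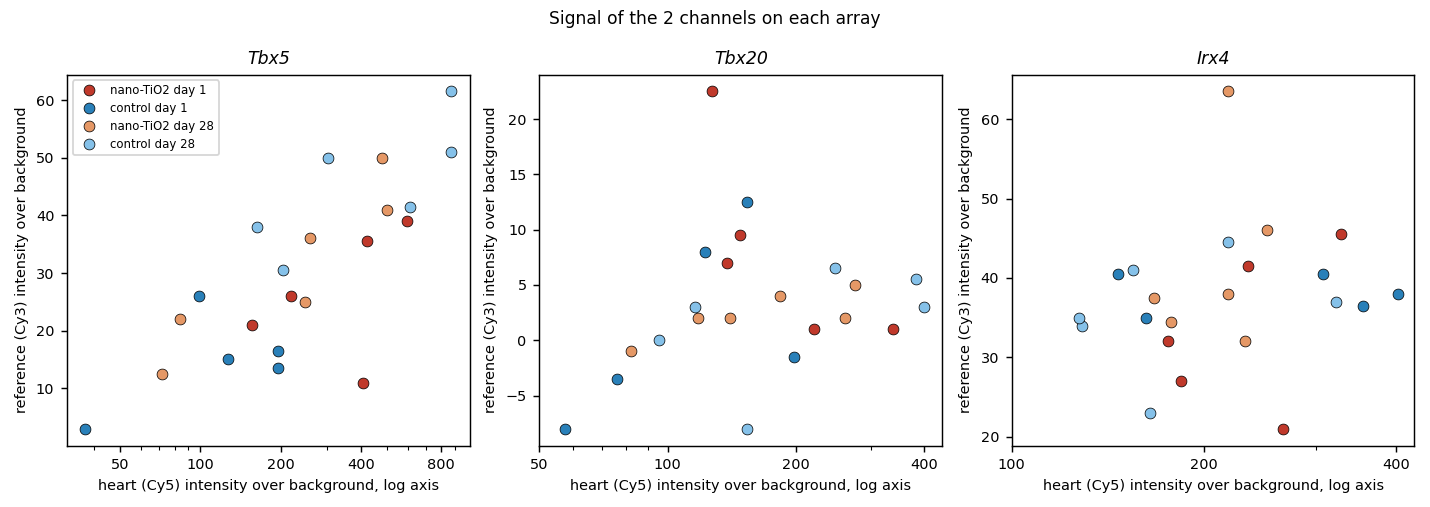
Reference (Cy3) intensity over background (vertical axis) against heart (Cy5) intensity over background (horizontal log axis) of the spots of Tbx5, Tbx20 and Irx4, 1 point per array, coloured by group. For Tbx5 the reference signal climbed with the heart signal, from 3 to 61.5, while for Irx4 it stayed between 21 and 63.5 with no such slope.

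Atrial transcripts also differed between the hearts. The mean ratio of the 7 atrial markers was 1.01, 5.01, 5.16, 5.26 and 4.68 in nano-TiO2 day 1 hearts and 3.10, 1.12, 3.68, 2.08 and 4.19 in control day 1 hearts. It ran from 1.12 over a median of 4.80 to 5.25 in nano-TiO2 day 28 hearts and from 4.84 over a median of 5.12 to 5.45 in control day 28 hearts. In controls over time, 7 of 7 atrial markers were higher at day 28 and 3 of them were called, namely Bmp10, Dkk3 and Stard10. At day 1 all 7 were higher in nano-TiO2 hearts and none was called.

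The atrial mean and the Tbx5 ratio were high together in some hearts and parted in others. The heart with the highest atrial mean, control day 28 replicate 4 (5.45), had the lowest Irx4 ratio of all 22 (1.59), the highest Tbx20 ratio (3.32) and a Tbx5 ratio of 3.63. Its array was also 1 of the 5 with lung or liver transcripts. The 3 hearts with atrial means of about 1 had Irx4 ratios of 2.95, 3.04 and 2.71 and Tbx5 ratios of 2.34, 2.17 and 1.56. Against that, control day 1 replicate 5 had an atrial mean of 4.19 with a Tbx5 ratio of 2.04, and nano-TiO2 day 28 replicate 2 one of 4.29 with a Tbx5 ratio of 1.65. Without the 3 hearts with atrial means of about 1, the Irx4 difference in controls was -0.65 ± 0.17 (SE; adjusted p = 0.0262), that of Tbx5 was 1.13 ± 0.33 (adjusted p = 0.0413), and the Tbx5 difference between nano-TiO2 and control at day 1 was 1.32 ± 0.36 (adjusted p = 0.159). Of the ventricular markers Myl3 was called lower in day 28 controls (-0.46 ± 0.13; adjusted p = 0.0296), and Myl2 was not (-0.36 ± 0.12; adjusted p = 0.0569).

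**Figure D5:**
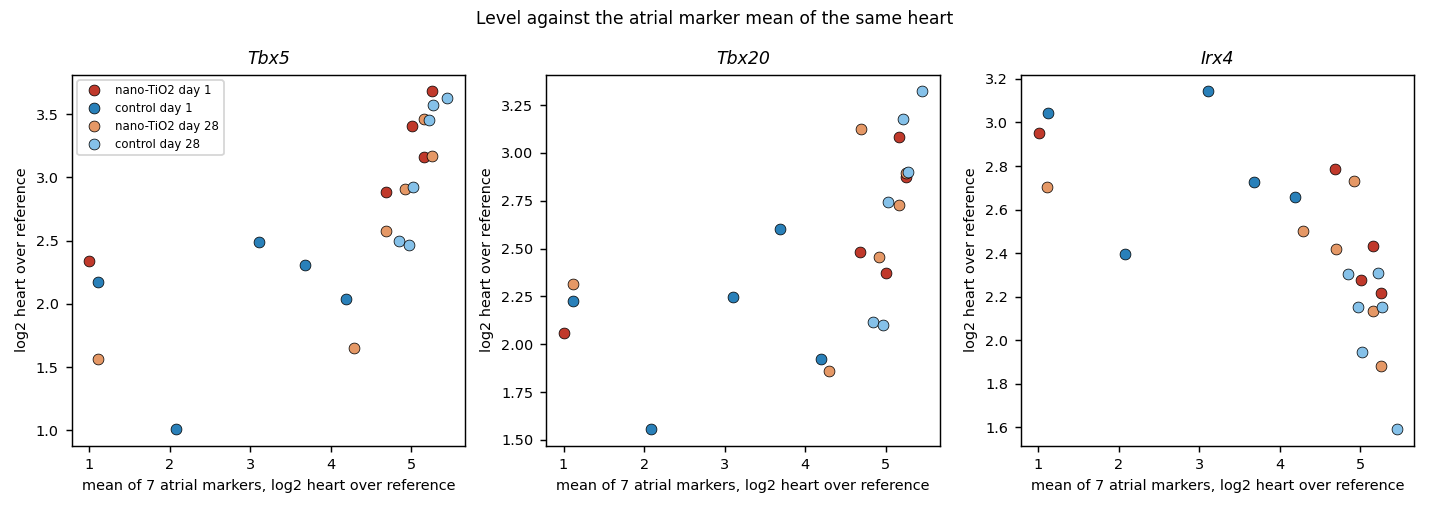
Log2 ratio of Tbx5, Tbx20 and Irx4 (vertical axes) against the mean log2 ratio of 7 atrial markers in the same heart (horizontal axis), 1 point per heart, coloured by group. Among the hearts at the right, Tbx5 and Tbx20 reached their highest ratios (3.68 and 3.32) and Irx4 its lowest (1.59). The values 3.32 and 1.59 are from control day 28 replicate 4, 1 of the 5 arrays with lung or liver transcripts.

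Markers of tissues around the heart muscle moved too. In day 28 against day 1 controls, 6 of 7 adipocyte, 5 of 5 mesothelial, 4 of 4 smooth muscle and 3 of 3 macrophage markers tested were called higher, beside 7.02% of all genes. Of 5 fibroblast markers 5 were higher and 1 was called, and 0 of 4 endothelial markers were called. Of 5 cardiomyocyte markers 2 were called lower, beside 3.44% of all genes. With the slide as a block 0 genes were called in this comparison, and without the 5 arrays with lung or liver transcripts 1 gene was. The adipocyte mean was 1.20 to 6.06 in nano-TiO2 day 1 hearts, 1.16 to 2.58 in control day 1 hearts, 1.31 to 5.73 in nano-TiO2 day 28 hearts and 3.68 to 6.68 in control day 28 hearts. The smallest number of adipocyte markers well above background on any control day 1 array was 1 of 7. The cardiomyocyte mean was 5.02 to 5.40, 4.96 to 5.36, 4.86 to 5.29 and 3.86 to 5.12 in the same 4 groups. The part of these tissues in the Tbx5 and Irx4 differences was not tested.

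Of 46 other cardiac transcription factors and cofactors, 35 were tested, and none was called between nano-TiO2 and control hearts at either time. At day 1, 23 were higher and 12 lower (median 0.04, against 0.01 over all genes), with Tbx2, a repressor of the chamber programme, at 0.27 ± 0.09 (adjusted p = 0.478) and Irx2 at -0.38 ± 0.14 (adjusted p = 0.484). Meis2 was at 0.41 ± 0.16 and the metabolic receptor Esrra at -0.14 ± 0.08. At day 28, Irx2 was at 0.29 ± 0.13 and Esrra at 0.16 ± 0.08, both higher in nano-TiO2 hearts, and the epicardial factor Wt1 was at -0.26 ± 0.11 and Nfatc4 at -0.20 ± 0.09. Adjusted p was at least 0.637 for these 4.

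In controls over time 3 of the 35 were called higher and 2 lower, near the 7.02% and 3.44% of all genes, with a median of -0.01 beside -0.002 over all genes. Wt1, an epicardial and mesothelial factor, rose by 0.68 ± 0.11 (adjusted p = 0.0027), the atrial and venous receptor Nr2f2 by 0.64 ± 0.16 (adjusted p = 0.0155) and the Notch target Hey1 by 0.52 ± 0.14 (adjusted p = 0.0182). Wt1 is also 1 of the 5 mesothelial markers counted above. Irx2, of the same family as Irx4, fell by 0.59 ± 0.13 (adjusted p = 0.0078), with its spot well above background in 2 of 6 day 28 and 5 of 5 day 1 controls. Ppargc1a, a coactivator of mitochondrial genes, fell by 0.33 ± 0.09 (adjusted p = 0.0216).

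Of 25 genes known as targets of these factors, 24 were tested, and none was called between nano-TiO2 and control hearts. Gja5, the atrial and conduction connexin that TBX5 is known to activate, had a mean ratio of 3.35 in nano-TiO2 and 1.69 in control hearts at day 1 (difference 1.66 ± 0.54; adjusted p = 0.478). At day 28 it had 3.29 in nano-TiO2 and 4.11 in control hearts (-0.81 ± 0.49; adjusted p = 0.716). Tbx5 had the same signs, and so did most atrial markers. Of these, 7 of 7 were higher in nano-TiO2 hearts at day 1 and 6 of 7 lower at day 28. The part of Tbx5 in the Gja5 differences was not tested. Bmp10, a growth factor of the atria, was well above background in 4 of 5 nano-TiO2 and 0 of 5 control hearts at day 1 (adjusted p = 0.478), and in 5 of 6 nano-TiO2 and 6 of 6 control hearts at day 28 (adjusted p = 0.642). The sarcomere and metabolic genes Tnnc1 and Ckm were at -0.18 ± 0.12 and -0.20 ± 0.14 at day 1, and Pln and Gja1 at 0.32 ± 0.13 and 0.27 ± 0.12 at day 28.

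In controls over time 2 of the 24 targets were called higher and 4 lower, where 7.02% and 3.44% of all genes were, and their median was -0.27, beside -0.002 over all genes, while their mean was 0.12. Gja5 rose by 2.42 ± 0.52 (adjusted p = 0.0064). Bmp10 was called higher (adjusted p = 0.0037), with a spot well above background in 6 of 6 day 28 and 0 of 5 day 1 controls. Pln, the inhibitor of the calcium pump, fell by 0.57 ± 0.14 (adjusted p = 0.0129), and the contractile and cytoskeletal genes Tnni3, Tnnt2 and Des fell by 0.39 ± 0.11, 0.38 ± 0.12 and 0.36 ± 0.12 (adjusted p of 0.0287, 0.0423 and 0.0486). Bmp10 is also 1 of the 7 atrial markers, and Tnni3 and Tnnt2 are also cardiomyocyte markers.

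Among all tested genes with a symbol, the ratios most like each factor's over the 22 arrays, after subtraction of group means, were named where Pearson's r was at least 0.8. Tbx5 was most like Lrp1 (r = 0.95) and Igfbp7 (r = 0.94), Tbx20 like C1qtnf7 (r = 0.92) and Maob (r = 0.91), and Mef2c like Flvcr2 and Ddx24 (r = 0.91 each). Nkx2-5 was like Hecw2 (r = 0.85), Irx4 like Gmnn (r = 0.84) and Lbh (r = 0.83), Mef2a like Rrp1 (r = 0.84) and Polr3gl (r = 0.83), Hand2 like Kcna5 and Ctsf (r = 0.81 each), and Gata6 like Agap1 (r = 0.82). No gene reached 0.8 for Gata4 or Hey2. These arrays share slides, scan days and the makeup of the tissue pieces, so the values are descriptions.

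Among the factors themselves, 37 of 45 pairs had a positive r and 8 a negative one. Tbx5 and Tbx20 were the most alike (r = 0.77), with r = 0.83 and r = 0.87 within 2 scan days of 8 arrays and r = -0.46 within the scan day of 6 arrays. Irx4 had a negative r in 7 of its 9 pairs, the lowest with Gata6 (r = -0.50), and a positive one with Nkx2-5 (r = 0.34) and Mef2c (r = 0.37). With Tbx5 it was -0.35 over the 22 arrays, and -0.65, -0.37 and -0.001 within the 3 scan days.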

How the data were processed

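Heart RNA of each of 22 mice was hybridised to its own 2-colour Agilent array. For every spot, the deposited scanner files give the median intensity and the local background in either channel, not normalized, and flags (other values) for spots well above background or uneven. They also give a log10 ratio of Cy5 over Cy3, background-subtracted and dye-normalized by the scanner software (Agilent Feature Extraction, version 10.7.3.1), per the file headers. The submitters' processing notes name version 9.5.3.1. The authors' deposited series matrix holds log2 ratios whose method is not given in the sources used here.

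From the intensities, ratios were computed in R 4.3.3 with limma 3.58.1 and data.table (version 1.17.8): background by normexp (offset 50, fitted without unevenly lit spots, since a fit on all spots gave aberrant parameters), loess within arrays (span 0.3, 4 iterations, control spots at weight 0). Flagged spots (0.299%) were left out and spots of a probe averaged. The filter kept probes that 5 or more of the 22 arrays showed well above background in Cy5 (19275 of 41174), a probe counting as such with a share of at least 0.5 of its spots. A gene was represented by the kept probe of brightest mean Cy5 signal. Symbols came from RefSeq accessions (23374 probes, 16535 symbols).

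Groups come from the sample titles. A model of 4 group means was fitted to all 22 arrays with eBayes, and p-values were adjusted by Benjamini-Hochberg over 15503 genes, at a threshold of 0.05. On simulated data for the day 1 comparison over 15503 genes, 95% of genes changed by 1 log2 unit and 99% of those changed by 2 were recovered. The simulated noise was independent between genes, with no slide or tissue differences shared by them. These shares check the fit and do not say how often such a change would be found in these hearts. Alternatives covered background, source of the ratio, centring, filters, probe summary, slide and scan day blocks, eBayes settings and leaving out arrays. The members and lists were chosen with earlier results of these data known. Named genes were the 10 members, and from the lists of other factors and of targets those called, plus, where fewer than 3 were called in a direction, up to 2 with the smallest p per direction at day 1 and day 28. Of the genes most like a member, 1 is not reported here. Promoter windows were searched and figures drawn in Python 3.11.15 with matplotlib 3.10.9. No gene coordinates are given beside the promoters, since the arrays were annotated on another build.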

Additional observations from a re-analysis of the deposited data

How the results depend on the processing

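The Irx4 decrease in controls over time kept its direction under all 16 other settings (-1.05 to -0.44) and its call under 12 of them. It lost the call with normexp fitted on all spots (adjusted p = 0.487), with median centring (-0.44; adjusted p = 0.404), with the slide as a block and without the arrays with lung or liver transcripts. It kept the call without any 1 of the 11 control hearts (-0.81 to -0.62). The Tbx5 increase kept its call under 8 of 16, reversed under 2 and lost the call under 6. With median centring the median difference of all genes was 0.17 at day 1, -0.10 at day 28 and 0.13 in controls over time. In the main analysis these medians were 0.014, -0.0057 and -0.0024. The settings without some arrays and with Cy5 alone were chosen after seeing the data. No paired analysis was possible because the labels give the mice no replicate numbers that tie them across groups, and the slides, which do hold hearts of both treatments, were fitted as a block. Dim spots limit what Hey2, Gata4 and Mef2a can show. The cause of the changes below was not tested.

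Genes called at day 1 were 0 in the main analysis, and 1 with plain subtraction, 7 with the scanner ratio, 40 without the 3 arrays with almost no atrial transcripts, and 0 to 21 when 1 heart was left out (21 without nano-TiO2 day 1 replicate 1). At day 28 they were 0, and 1 with plain subtraction and 0 to 3 with 1 heart left out (3 without control day 28 replicate 6). For the difference of effects they were 0, and 45 with the scanner ratio, 6 with the scan day as a block, 95 without the 3 atrial-poor arrays and 0 to 311 with 1 heart left out, above 0 without nano-TiO2 day 1 replicate 1 (311), nano-TiO2 day 28 replicate 3 (178) or 6 (13), or control day 28 replicate 6 (28). In controls over time they were 1623, and 79 with normexp on all spots, 3864 with the scanner ratio, 87 with median centring, 0 with the slide as a block, 1 without the arrays with lung or liver transcripts and 958 to 2069 with 1 heart left out. The lowest were 958, 961, 1059 and 1067 without control day 1 replicate 2, control day 28 replicate 4, control day 1 replicate 1 and control day 28 replicate 5.

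Mean ratios with plain subtraction were 1.45 for Gata4, 2.44 for Gata6, 3.79 for Nkx2-5, 4.72 for Tbx5, 6.64 for Tbx20, 0.54 for Mef2a, 2.17 for Mef2c, 2.91 for Hand2, 4.09 for Irx4 and 3.11 for Hey2. With the scanner ratio they were 1.51 for Gata4, 2.29 for Gata6, 3.73 for Nkx2-5, 4.94 for Tbx5, 7.32 for Tbx20, 1.34 for Mef2a, 2.19 for Mef2c, 2.99 for Hand2, 4.01 for Irx4 and 2.48 for Hey2. Median centring gave 0.97 for Gata6, 2.02 for Nkx2-5, 2.02 for Tbx20, 0.67 for Mef2c, 1.66 for Irx4 and 0.42 for Hey2. The mean of the kept probes gave 0.94 for Gata6, and normexp on all spots 2.88 for Nkx2-5.

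Other signs turned, all in differences that no setting called in the turned direction. At day 1 they were, with plain subtraction, Hey2 at -0.0033. With normexp on all spots they were Irx4 at 0.029 and Nkx2-5 at 0.16. With the scanner ratio they were Mef2a at -0.037, Mef2c at -0.12 and Tbx20 at -0.11. Median centring gave Nkx2-5 at 0.21, the mean of the kept probes Gata6 at -0.0096, and Cy5 alone Gata4 at -0.0074 and Hand2 at -0.036.

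At day 28 plain subtraction gave Hey2 at -0.040 and Tbx20 at 0.42, no background subtraction Hey2 at -0.068, normexp on all spots Mef2c at -0.069 and Nkx2-5 at -0.0025, the scanner ratio Gata4 at 0.052, the series matrix Hey2 at -0.066, median centring Mef2c at -0.12, and the mean of the kept probes Gata6 at 0.0056. Cy5 alone gave Hand2 at 0.0071 and Mef2c at -0.024, leaving out the atrial-poor arrays Mef2c at -0.0081, and leaving out those with lung or liver transcripts Tbx20 at 0.064.

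In controls over time plain subtraction gave Hey2 at 1.04 and Tbx5 at -0.17, the scanner ratio Hey2 at 0.56 and Tbx5 at -0.31, no background subtraction Gata4 at 0.054 and Hey2 at 0.050, normexp on all spots Hey2 at 0.030 and Mef2a at 0.0059, and the series matrix Gata4 at 0.033 and Hey2 at 0.045. Median centring gave Mef2c at 0.084, the mean of the kept probes Mef2a at 0.013, the slide as a block Gata4 at 0.049 and Mef2a at 7e-04, leaving out the atrial-poor arrays Mef2a at 0.027, and leaving out those with lung or liver transcripts Gata4 at 0.013. In nano-TiO2 hearts over time Tbx20 was at 0.62 with plain subtraction, 0.16 with the scanner ratio and 0.015 with median centring, and Irx4 at 0.0069 with Cy5 alone.

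Leaving out 1 heart turned 9 near-zero differences: at day 1 Mef2c (-0.0055 to 0.24) and Nkx2-5 (-0.091 to 0.047), at day 28 Gata4 (-0.069 to 0.032), Mef2a (-0.030 to 0.12) and Mef2c (-0.028 to 0.10), in controls over time Gata4 (-0.047 to 0.031), Hey2 (-0.064 to 0.019) and Mef2a (-0.075 to 0.078), and in nano-TiO2 hearts over time Tbx20 (-0.14 to 0.13).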
